A study of Arabidopsis thaliana with 7 samples.

Results

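The comparison described here set leaves of Arabidopsis thaliana taken 12 h after a spray with the wetting agent Silwet against leaves taken 6 h after the same spray. Both were chosen by their labels, as the arrays of Silwet alone, and make up 2 of the 7 arrays of the series. The difference at each probe set is 12 h minus 6 h. It shows how transcript levels differed between 2 times after the spray in leaves that received no salicylic acid (SA). Time of day and time since the spray changed together, so the 2 cannot be told apart here.

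All plants were Col-0, aged 3.5 weeks, grown on soil in chambers at 22 °C with a 12 h photoperiod and a light level of 180 µE. Silwet plants received 0.02% Silwet alone and were taken at 12 h or 6 h, and SA plants received 0.5 mM SA in 0.02% Silwet and were taken at 3, 6, 12 or 24 h. The untreated plants, the 0 h baseline, were taken just before the spray. Each sample pooled mature, fully expanded leaves of 2 to 4 plants (about 0.2 g), no plant was sampled again, and each condition and time had 1 array. The study also collected biological replicates, which are not analysed here, so no difference below carries an error between plants or a p-value, and the number of arrays limits the precision. The clock hour of the spray is not given in the sources used here, so hours after the spray cannot be placed against dawn or dusk.

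A leaf's transcripts follow the day through several linked systems. The circadian clock is a network of transcription factors and their partners that are made in turn at set phases of the day and that time the genes under them. Light acts through photoreceptors on the genes of chloroplast development and pigment synthesis. The carbon state acts as well: starch is laid down in the light and broken down in the dark, and when sugar runs low the kinase SnRK1 is active and genes for the breakdown of amino acids and for autophagy are switched on. Expansins and xyloglucan endotransglucosylases loosen the cell wall as cells enlarge.

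Values are RMA expression values on a log2 scale, so a difference of 1 is a 2-fold difference between arrays. The median over all probe sets and arrays was 7.04, and a value well under it lies among the dim probe sets of the array. A difference of 2-fold or more separated the Silwet leaves of 12 h from those of 6 h at 524 higher (3.88%) and 401 lower (2.97%) of the 13513 probe sets that name 1 gene. Differences of 4-fold or more were found for 48 higher and 69 lower probe sets, and of 8-fold or more for 4 and 25, so the larger differences were more often lower at 12 h. The median difference was 0 and the quartiles of the differences were -0.18 and 0.19. In all, 6252 probe sets were higher, 6715 were lower and 546 had the same value on both arrays. Counted as genes, with the brightest probe set of each, 521 (3.9%) of 13355 were higher and 396 (2.97%) lower by 2-fold or more. In SA leaves over the same interval 349 genes (2.61%) were higher and 384 (2.88%) lower by 2-fold or more. These are the shares against which the counts of list members below stand. They include dim probe sets, which seldom passed 2-fold. Of all probe sets 52.5% were under the median level on both Silwet arrays, but of the 524 higher ones 7.63% and of the 401 lower ones 6.48%. The shares among brighter probe sets alone are therefore larger than those given here.

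The values of both Silwet arrays correlated at Pearson's r = 0.972 over the 13513 probe sets, which share the array design and the normalisation. The 3′ end of the GAPDH control exceeded its 5′ end by 1.41 at 12 h and 1.78 at 6 h, the actin control by 1.84 and 2.39, and the ubiquitin control by 1.54 on both. The array's control for 25S ribosomal RNA read 13.43 at 12 h and 8.20 at 6 h in Silwet leaves, and 12.44 at 12 h and 9.41 at 6 h in SA leaves, so it moved with time on both pairs of arrays. The part of these control differences in the results below was not tested. Of 4 measured reference genes none differed 2-fold: GAPC2 differed by 0.44, AT4G34270 by 0.26, PEX4 by 0.10 and AT2G28390 by -0.22. Rubisco activase (RCA), a marker of mesophyll, the main green tissue of the leaf, read 14.07 at 12 h and 14.04 at 6 h, and the labelled tissue therefore has its marker on both arrays. Of the stomatal markers STOMAGEN, whose peptide promotes stomatal formation and is made in mesophyll, read 10.40 and 9.34, the guard cell factor FMA 8.30 and 7.81, and the lineage factors MUTE (5.47 and 5.58) and SPCH (4.42 and 4.45) were dim on both. The senescence marker SAG29 read 6.26 and 6.22. Fewer cells of a type and less RNA per cell cannot be told apart in whole leaves. Markers of phloem, epidermis, trichome, root and flower are not analysed here.

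The clock gene GIGANTEA (GI) had the largest difference of all probe sets. It encodes a large protein that stabilises an F-box photoreceptor of the clock and promotes flowering in long days. GI read 4.83 in Silwet leaves at 12 h and 11.01 at 6 h, a difference of -6.19. The 12 h value lies below the lower quartile of its array (5.18), among dim probe sets, so no exact fold is given. In untreated leaves it read 8.71, and in SA leaves 8.76, 10.12, 5.36 and 9.19 at 3, 6, 12 and 24 h. Both 12 h arrays were thus the lowest of the 7 and both 6 h arrays the highest, with the untreated array and the 3 h and 24 h arrays between them.

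Of the 52 loci on the clock list 8 were measured, and the other 6 beside GI and COR27 stayed within 2-fold. The 1 member higher and the 1 lower by 2-fold were 12.5% each, against 3.9% and 2.97% of all genes. COR27, a cold- and light-regulated clock component, was higher at 12 h, with 11.69 at 12 h and 10.17 at 6 h (1.52). It was far dimmer in untreated leaves (5.27), and read 4.49, 9.93, 9.90 and 5.52 in SA leaves at 3, 6, 12 and 24 h, where the 12 h and 6 h arrays differed by -0.03. COR27 was therefore high on all 4 arrays of 6 h and 12 h and low on the other 3. AT4G33980, another locus of this list, had the same layout over arrays, with 8.88 and 9.28 in Silwet leaves at 12 h and 6 h, 3.50 in untreated leaves and 3.60, 9.21, 8.20 and 3.92 in SA leaves at 3, 6, 12 and 24 h. Its 12 h and 6 h values differed by -0.40 in Silwet leaves and -1.01 in SA leaves. The remaining members differed by 0.51 (AT4G01280), 0.10 (TIC), -0.10 (XCT), -0.11 (AT1G69570) and -0.27 (AT5G52660). TIC, a nuclear regulator of clock timing, read 10.86 at 12 h and 10.76 at 6 h. The median of the 8 was -0.10, with 3 members higher and 5 lower, against a median of 0 over all genes. The sign of that median changed, to 0.10, with bright members only, those whose mean over the 7 arrays reaches the median of such means.

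**Figure D1:**
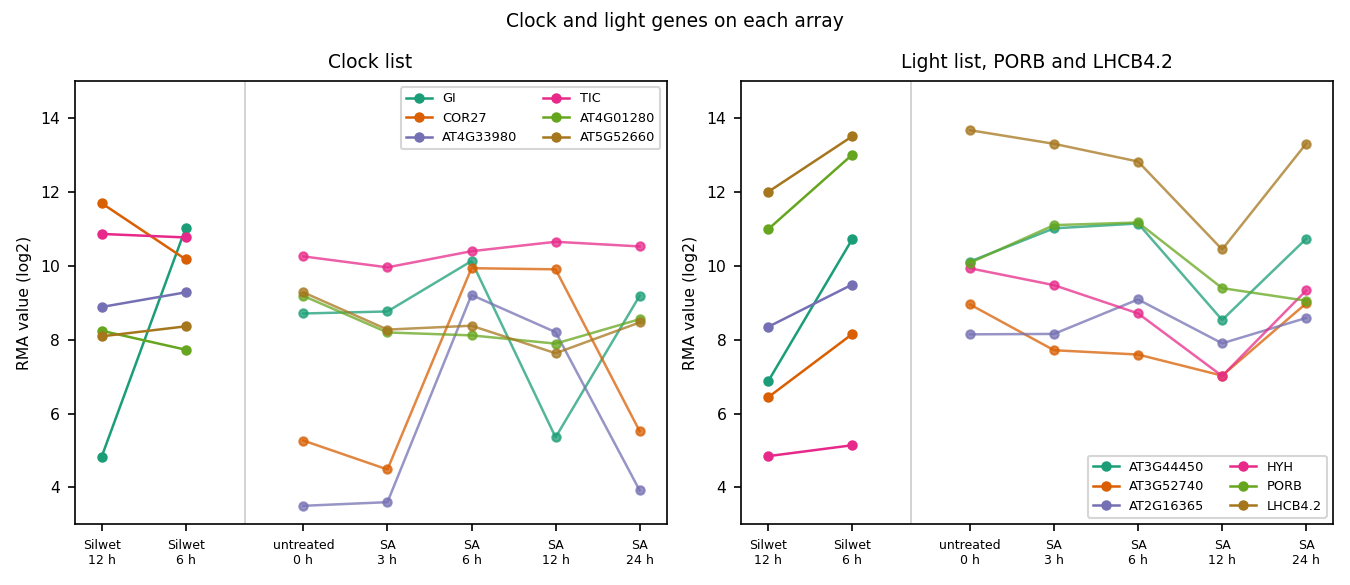
RMA value (log2) on each of the 7 arrays for 6 genes of the clock list (left panel) and for 4 loci of the light list with PORB and LHCB4.2 (right panel), 1 array per point; lines join the Silwet pair and, apart from it, the untreated and SA arrays in time order. GI is lowest on both 12 h arrays, COR27 and AT4G33980 are high on all 6 h and 12 h arrays, and HYH is low on both Silwet arrays.

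The light list was lower at 12 h in most of its few measured loci. Of 57 loci 5 were measured, 3 of them (60.0%) at least 2-fold lower and 0 at least 2-fold higher, against 2.97% and 3.9% of all genes, with a median of -1.14 (-1.19 in SA leaves over the same interval). AT3G44450 read 6.87 at 12 h and 10.71 at 6 h (-3.84), AT3G52740 read 6.44 and 8.15 (-1.71), and AT2G16365 read 8.34 and 9.49 (-1.14). In SA leaves at 12 h and 6 h AT3G44450 read 8.53 and 11.14, AT3G52740 read 7.02 and 7.60, and AT2G16365 read 7.90 and 9.09, lower at 12 h in each. HYH, a bZIP factor of light signalling closely related to HY5, was dim on both Silwet arrays, at 4.85 and 5.14 (-0.29). Against this the untreated array read 9.93 and the SA arrays 9.47, 8.71, 7.01 and 9.33 at 3, 6, 12 and 24 h, so both Silwet arrays lay below all others. FHL, which helps carry phytochrome A into the nucleus, was dim throughout and differed by 0.21.

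Genes of the photosynthetic apparatus were bright on both arrays and mostly within 2-fold, as were most genes measured. Of 66 listed loci 10 were measured, with a median of -0.23, 4 higher and 6 lower. At least 2-fold higher were 0, against 3.9% of all genes. At least 2-fold lower was 1 (10.0%), against 2.97%. That one was LHCB4.2, a minor antenna protein of photosystem II, with 11.99 at 12 h and 13.50 at 6 h (-1.50), and 10.44 and 12.82 in SA leaves (-2.38). Its close relatives differed less, LHCB4.1 by -0.13 and LHCB4.3 by 0.02. Small subunits of the photosystems were lower by less than 2-fold, with -0.62 for PSAN, -0.55 for PSBY, -0.50 for PSAE-1 and -0.32 for PSBW. Enzymes of the Calvin cycle differed little, with 0.27 for PRK, 0.14 for SBPASE and 0.03 for RCA, which activates Rubisco. Of 69 genes encoded in the plastid genome none differed 2-fold, where 3.9% of all genes were higher and 2.97% lower by that much. The plastid differences ran from -1.0 (rps16, a ribosomal protein gene, at 6.99 and 7.99, just short of 2-fold) to 0.55 (accD, a subunit gene of fatty acid synthesis).

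In tetrapyrrole and carotenoid synthesis the member that stood apart was PORB, which reduces protochlorophyllide to chlorophyllide in light. PORB read 10.98 at 12 h and 13.00 at 6 h (-2.02, or 4.04-fold), with 10.08 in untreated leaves and 9.39 and 11.17 in SA leaves at 12 h and 6 h. The Silwet 6 h array was the brightest of the 7 for this gene. Of the 43 listed loci 9 were measured, with a median of -0.12. At least 2-fold lower was 1 (11.1%) and at least 2-fold higher 0, against 2.97% and 3.9% of all genes. Both genes of uroporphyrinogen decarboxylase, HEME1 (-0.97) and HEME2 (-0.81), and CHLI2, a magnesium chelatase subunit (-0.90), came just short of 2-fold. In contrast HEMB1 and GSA1 had the same value on both arrays, LYC, the lycopene cyclase of carotenoid synthesis, differed by 0.02 and CHLM, the next enzyme after the chelatase, by 0.09.

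Starch genes were lower at 12 h in 6 of the 7 that were measured of 40 listed, with a median of -0.72. Of all genes 49.8% were lower. APL3, a large subunit of the pyrophosphorylase that makes ADP-glucose for starch, read 6.27 at 12 h and 7.81 at 6 h (-1.54). AT5G39790 read 6.59 and 8.48 (-1.89). Those were the 2 members past 2-fold (28.6%, against 2.97% of all genes). Both were also at least 2-fold lower in SA leaves, by -1.15 and -1.26. The branching enzyme SBE2.2 differed by -0.85 and the disproportionating enzyme DPE1, which acts on maltotriose from starch breakdown, by -0.72. PWD, the phosphoglucan water dikinase that opens the granule to breakdown, was within 2-fold (11.74 and 11.61). For PWD and DPE1 both Silwet arrays stood above the rest of the series. PWD read 8.81 in untreated leaves and 8.72, 9.69, 10.08 and 8.54 in SA leaves at 3, 6, 12 and 24 h, and DPE1 read 9.68 and 10.40 in Silwet leaves against 6.90 in untreated leaves and 5.53 to 7.45 in SA leaves.

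Genes of sugar transport and synthesis differed in both directions, and the direction went with no single class. Of 60 listed loci 13 were measured, 3 (23.1%) higher and 2 (15.4%) lower by 2-fold or more, against 3.9% and 2.97% of all genes. The median was 0.05 (0.30 with bright members only). SWEET2, a vacuolar sugar facilitator, read 8.06 at 12 h and 6.68 at 6 h (1.38), although the untreated array was much brighter, at 11.12. The tonoplast importer TMT1 read 11.03 and 9.95 (1.08), while its relative TMT2 read 9.18 and 10.50 (-1.32). SWEET17, a fructose facilitator of the tonoplast, read 8.57 and 9.85 (-1.28), and SWEET16, of the same membrane, differed by -0.68. Of the plasma membrane exporters that load sucrose toward the phloem, SWEET11 read 12.31 and 11.38 (0.93). SWEET13, outside the list but in the same family, read 5.75 and 7.66 (-1.90). AT1G62660, on the list, read 10.05 and 9.02 (1.03). In SA leaves TMT1 differed by 0.92, TMT2 by -0.47, SWEET17 by -0.96, SWEET2 by 0.48 and SWEET13 by -0.47, so each had its Silwet sign and none reached 2-fold there. ATSPS4F, a sucrose phosphate synthase, did not keep its sign, at -0.62 in Silwet leaves and 2.37 in SA leaves. Over the 19 measured members of the SWEET and TMT families 2 (10.5%) were higher and 3 (15.8%) lower by 2-fold or more.

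The low-energy list, meant for genes switched on when carbon is short, held more members at least 2-fold higher at 12 h than any other list described here. This ranking is by count, and the shares of the WRKY genes (42.9%) and the U2AF family (66.7%) were larger. The U2AF family was added after its values were seen. Of 50 loci 15 were measured, 6 (40.0%) higher and 2 (13.3%) lower by 2-fold or more, against 3.9% and 2.97% of all genes, with a median of 0.75. AKINBETA1, a regulatory subunit of SnRK1, read 11.14 at 12 h and 8.67 at 6 h (2.47, or 5.54-fold), with 10.07 at 12 h and 8.99 at 6 h in SA leaves. AT3G15630 read 11.00 and 8.84 (2.16), and AT3G15450 read 11.97 and 10.80 (1.17). EXO, a secreted protein known for promoting growth under brassinosteroids rather than for a part in starvation, read 8.65 and 6.02 (2.64). The steps of leucine breakdown in mitochondria were higher by about 2-fold, with 9.28 and 8.12 for MCCA (1.16) and 8.96 and 7.81 for IVD (1.15). MCCB, the partner subunit of MCCA, differed by only 0.23, and ETFQO and ETFALPHA, which pass on the electrons of that pathway, by 0.54 and -0.14. At the other end AT2G32150 read 8.08 and 9.78 (-1.70) and AT5G38710 read 5.29 and 6.50 (-1.22). In SA leaves 4 of the 15 (26.7%) were at least 2-fold higher at 12 h and 0 at least 2-fold lower, against 2.61% and 2.88% of all genes. The median there was 0.30, and the 4 were MCCA (1.41), EXO (1.41), AT4G33150 (1.33) and AKINBETA1 (1.08).

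The ATG8 family, ubiquitin-like proteins that coat the membranes of autophagy, was higher in 8 of 9 members, against 46.1% of all genes. Of the 9, 1 alone (11.1%) reached 2-fold, against 3.9% of all genes. ATG8E read 10.13 at 12 h and 8.60 at 6 h (1.52), ATG8B 8.00 and 7.07 (0.93), ATG8H 7.26 and 6.64 (0.62) and ATG8F 11.78 and 11.16 (0.61). The median of the 9 was 0.57, and 0.41 in SA leaves, where 8 of 9 were likewise higher, against 51.7% of all genes.

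**Figure D2:**
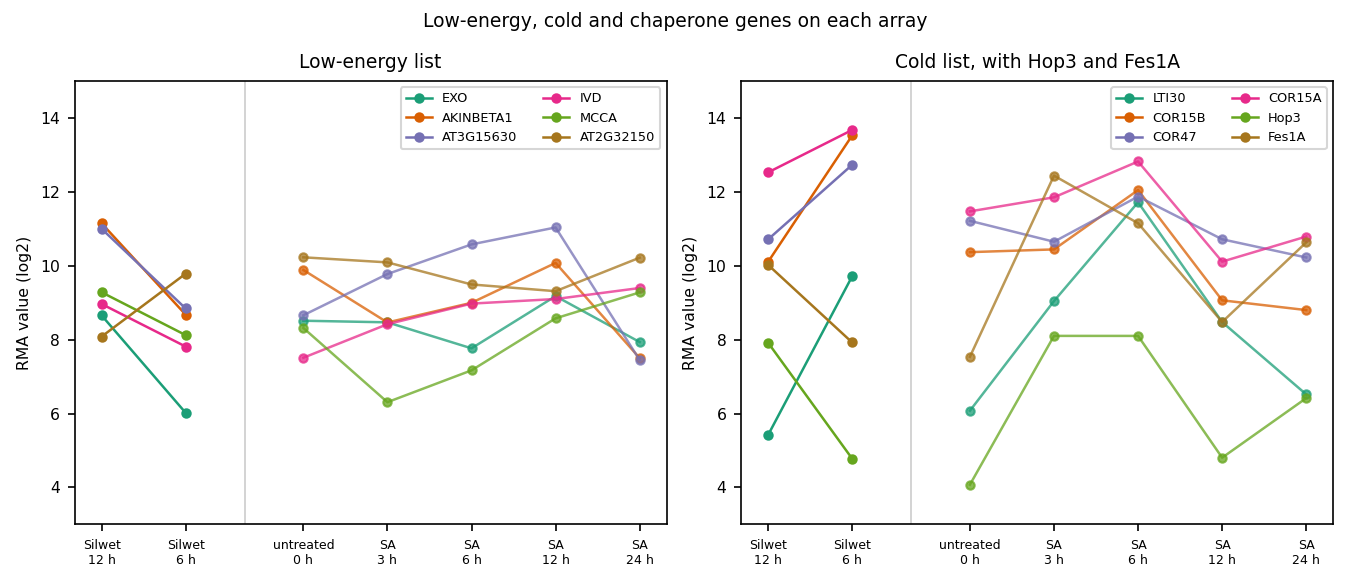
RMA value (log2) on each of the 7 arrays for 6 loci of the low-energy list (left panel) and for 4 cold-regulated genes with the chaperone genes Hop3 and Fes1A (right panel), 1 array per point; lines join the Silwet pair and, apart from it, the untreated and SA arrays in time order. The cold-regulated genes are lower at 12 h than at 6 h in both arms, while Hop3 and Fes1A are higher at 12 h in Silwet leaves and lower at 12 h in SA leaves.

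Growth genes past 2-fold lay in both directions. Of 68 loci 21 were measured, 9 of them under the median level of the arrays on both Silwet arrays. At least 2-fold higher were 3 (14.3%) and at least 2-fold lower 2 (9.52%), against 3.9% and 2.97% of all genes. The median was 0.06 (0.53 with bright members only). The receptor kinase THE1, which senses the state of the cell wall, read 9.21 at 12 h and 7.95 at 6 h (1.25), and 9.18 and 7.41 in SA leaves (1.77). EXGT-A3, a xyloglucan endotransglucosylase, read 11.46 and 10.27 (1.19), and the expansin gene EXPA16 read 8.70 and 7.61 (1.09). XTH32, of the same enzyme family as EXGT-A3, was the opposite, with 7.32 and 9.89 (-2.56), and 11.05 in untreated leaves. The beta-expansin gene EXPB1 read 6.00 and 7.08 (-1.07). Of the 19 expansin genes measured as a family 12 were under the median level on both arrays, and EXPA8, the brightest, differed by 0.25. The GH9 family of cellulases was added after its values were seen. Of its 15 measured genes 13 were within 2-fold and 2 (13.3%) at least 2-fold lower, against 2.97% of all genes. The median of the 15 was -0.04, and 11 were under the median level on both arrays. The 2 lower ones, GH9C2 and GH9B7, read 8.18 and 10.88 (-2.70) and 9.02 and 10.56 (-1.54). Both were also at least 2-fold lower in SA leaves (-1.05 and -1.41). Of 7 tubulin genes 6 were lower, all by less than 2-fold, where 49.8% of all genes were lower. TUA1 alone (14.3%) was at least 2-fold higher, against 3.9% of all genes, at 9.83 and 8.48 (1.35).

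Auxin genes differed little. Of 74 loci 10 were measured and none differed 2-fold, where 3.9% of all genes were higher and 2.97% lower by that much. IAA18, an Aux/IAA repressor of auxin response, came closest, with 10.04 at 12 h and 9.06 at 6 h (0.98), and the auxin synthesis gene YUC2 was lower, with 6.85 and 7.34 (-0.50). The median was 0.12, and 7 of the 10 were under the median level on both arrays. With bright members only, by the mean over all 7 arrays, the median was 0.41. Those members included GH3.3 (4.90 and 4.73) and WES1 (6.61 and 6.16), which were under the median level on both Silwet arrays and brighter on every SA array. Of the gibberellin receptors GID1B read 7.70 and 6.52 (1.18), whereas GID1C differed by 0.09 and GID1A by -0.25. The cytokinin response regulator RR16, a type-A regulator that feeds back on the signal, was among the genes furthest higher, with 9.94 and 7.35 (2.58) in Silwet leaves and 8.89 and 5.97 (2.92) in SA leaves at 12 h and 6 h. For flavonoid genes UGT78D1, a flavonol rhamnosyltransferase, was the only one of 4 measured past 2-fold, with 8.30 and 9.37 (-1.08), and it differed by 0.93 in SA leaves.

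**Figure D3:**
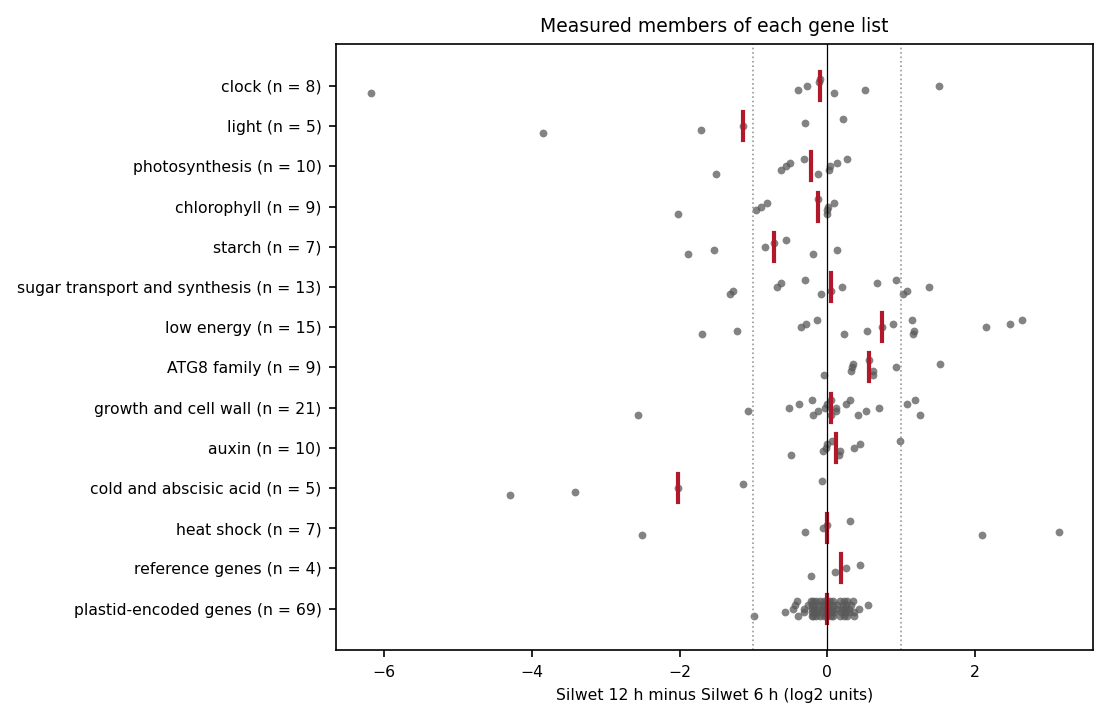
Difference between Silwet arrays, 12 h minus 6 h (log2 units), for each measured member (grey points) of 14 gene lists, with the median of each list as a red bar and dotted lines at 2-fold; points are offset up and down for legibility only. The cold and light lists lie lowest, the low-energy list highest, and reference and plastid-encoded genes lie within 2-fold.

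Cold-regulated genes had the lowest median of the lists. Of 41 loci 5 were measured, all of them lower and 4 (80.0%) at least 2-fold lower, with a median of -2.02. Of all genes 49.8% were lower and 2.97% at least 2-fold lower. LTI30, a dehydrin made in cold and drought, read 5.42 at 12 h and 9.71 at 6 h (-4.29). COR15B and COR15A, which protect chloroplast membranes on freezing, read 10.10 and 13.52 (-3.42) and 12.52 and 13.67 (-1.15). The dehydrin COR47 read 10.71 and 12.73 (-2.02). The fifth, LEA4-5, was dim, at 5.50 and 5.58. For COR15A, COR15B and COR47 the Silwet 6 h array was the brightest of the 7. The same 4 genes were at least 2-fold lower at 12 h in SA leaves, with differences of -3.24 for LTI30, -2.98 for COR15B, -2.71 for COR15A and -1.16 for COR47. COR27, which is named for cold but stands on the clock list, was instead higher at 12 h in Silwet leaves.

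Of 7 measured chaperone genes 2 (28.6%) were higher and 1 (14.3%) lower by 2-fold or more at 12 h in Silwet leaves. The shares over all genes were 3.9% and 2.97%. In SA leaves 0 were higher by that much and 4 lower, against 2.61% and 2.88% of all genes. The difference between the arms was not tested. Hop3, a co-chaperone that joins HSP70 and HSP90, read 7.91 at 12 h and 4.78 at 6 h in Silwet leaves (3.14) and 4.81 and 8.10 in SA leaves (-3.29). Fes1A, an HSP70-binding protein of heat tolerance, read 10.02 and 7.92 in Silwet leaves (2.1) and 8.48 and 11.15 in SA leaves (-2.67). AT5G48570, on the same list, was lower in both, at 3.98 and 6.49 in Silwet leaves (-2.51) and 4.86 and 10.35 in SA leaves (-5.50). The 4 other measured members differed by at most 0.31 in size in Silwet leaves, and 5 of the 7 were under the median level on both Silwet arrays. CRT1b, a calreticulin of the endoplasmic reticulum, read 8.78 and 10.65 in Silwet leaves (-1.88) and 10.61 and 12.75 in SA leaves (-2.14).

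Of 7 measured WRKY genes 3 (42.9%) were higher by 2-fold or more and 0 lower at 12 h in Silwet leaves, against 3.9% and 2.97% of all genes. In SA leaves 0 were higher and 2 (28.6%) lower by that much, against 2.61% and 2.88%. WRKY53, a transcription factor of senescence and defence, read 8.17 at 12 h and 5.42 at 6 h in Silwet leaves (2.75), below the untreated array (11.85) and below the SA arrays (12.27, 11.42, 10.05 and 9.60 at 3, 6, 12 and 24 h). Both Silwet arrays were thus the lowest of the 7, and the 6 h one by more. WRKY22 and WRKY47 had 6.56 and 5.19 (1.37) and 6.93 and 5.67 (1.27), also higher at 12 h. Both were among the 4 of the 7 under the median level on both Silwet arrays. The median of the 7 was 0.46, and 0.16 with bright members only. In SA leaves WRKY22 and WRKY47 differed by -0.03 and -0.22, and the 2 lower ones there were WRKY53 (-1.36) and WRKY42 (-1.61). STZ, a zinc finger factor of rapid stress, read 7.84 and 7.37 (0.47) against 11.92 in untreated leaves. The jasmonate-regulated defensin gene PDF1.2 read 10.42 and 9.09 in Silwet leaves (1.33), against 5.09 and 7.88 in SA leaves (-2.78). PDF1.2b read 11.78 and 11.12 (0.66), against 6.75 and 9.44 in SA leaves (-2.69). SA-responsive genes were within 2-fold in Silwet leaves, with 0.81 for the glutaredoxin GRX480, 0.39 for SAG101 and 0.38 for UGT76B1, an SA-pathway glucosyltransferase.

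Of the 15 genes furthest higher at 12 h few carry a name in the annotation used. AT3G19030 read 11.83 at 12 h and 8.20 at 6 h (3.63), AT1G54740 read 10.37 and 6.79 (3.58) and AT3G07870 read 10.86 and 7.57 (3.29). Hop3, AT4G27450 (2.9), AT1G68110 (2.88), WRKY53, AT5G19120 (2.67), EXO, AT1G33050 (2.63), AT5G58120 (2.61), AT2G20670 (2.61), RR16, AT5G58570 (2.53) and AT5G47180 (2.48) followed. Of these 15, 8 were at least 2-fold higher in SA leaves over the same interval and 2 at least 2-fold lower, where the backgrounds are 2.59% higher and 2.86% lower. The Silwet 6 h array read below the untreated array for 13 of these 15. The 15 genes furthest lower at 12 h ran from -6.19 to -3.17, and all 15 were at least 2-fold lower in SA leaves too. Among the lower 15 the Silwet 6 h array read below the untreated array for 2. The 6 h value entered the choice of both sets, so neither of these counts against the untreated array is a separate result. After GI came AT1G51090 with 6.48 and 10.87 (-4.40), LTI30, and CYP71B26, a cytochrome P450, with 6.60 and 10.83 (-4.23). They were followed by AT3G44450, AT3G09440 (-3.81), AT5G59130 (-3.78), AT1G73480 (-3.71), AT5G35970 (-3.66), AT5G62360 (-3.59), COR15B, AT5G02180 (-3.28), AT1G18360 (-3.27), AT4G16880 (-3.18) and AT2G39920 (-3.17). CYP71B26 was alone in its family in this, since of 18 measured CYP71B genes it was the only one past 2-fold (5.56% lower, against 2.97% of all genes).

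**Figure D4:**
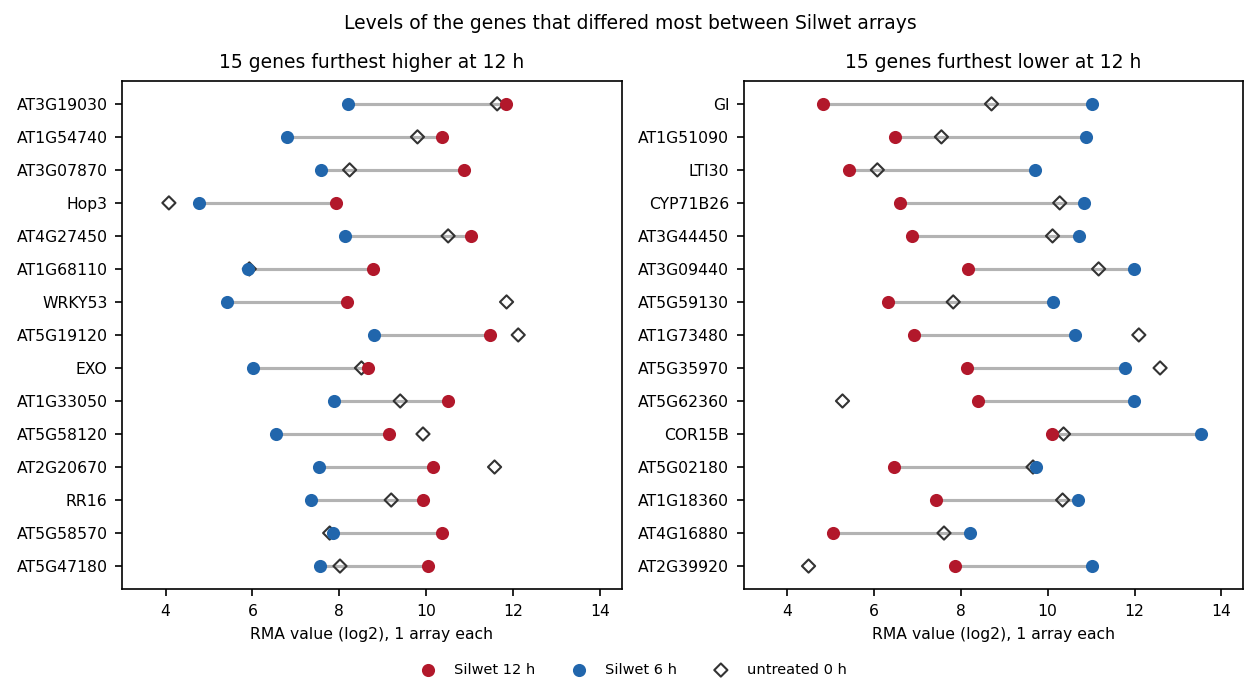
RMA value (log2) of the 15 genes furthest higher (left panel) and the 15 furthest lower (right panel) at 12 h than at 6 h in Silwet leaves, with Silwet 12 h in red, Silwet 6 h in blue and untreated leaves as open diamonds, 1 array each. GI spans 4.83 at 12 h and 11.01 at 6 h, the widest pair.

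Further genes with a symbol that differed most, a choice made after the values were seen, added several functions. Higher at 12 h were TBL37, of a family of wall polysaccharide acetyltransferases (10.37 and 7.92, 2.44), the ribosomal RNA dimethylase DIM1A (9.82 and 7.67, 2.15) and bHLH121, a regulator of iron uptake (10.60 and 8.59, 2.01). Both small subunits of the splicing factor U2AF were higher, ATU2AF35A with 9.78 and 8.00 (1.79) and U2AF35B with 10.37 and 9.15 (1.22), and the large subunit ATU2AF65A differed by 0.65. The trihelix factor genes GT2 (1.62) and GT-1 (1.55), which bind light-responsive promoters, the linker histone HIS1-3 (1.66) and the bZIP factor BZIP61 (1.62) were higher as well. Lower at 12 h were MSRB6, a repair enzyme for oxidised methionine (8.22 and 11.36, -3.15), and the pyruvate decarboxylase PDC2 of ethanol fermentation (9.13 and 11.98, -2.85). In SA leaves MSRB6 read 5.80 at 12 h and 8.63 at 6 h, and PDC2 read 9.39 and 11.74. TBL26, a relative of TBL37, read 7.89 and 10.98 in Silwet leaves (-3.09) but 6.50 and 6.73 in SA leaves (-0.23). The beta-glucosidase BGLU44, which acts on mannosides, read 10.19 and 12.50 (-2.31), the vacuolar protease BETA-VPE 5.18 and 7.17 (-1.99), the lipocalin TIL of heat and freezing tolerance 10.31 and 12.25 (-1.94), and VTC4 of ascorbate synthesis 8.32 and 10.13 (-1.81).

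SA leaves over the same interval gave a second, separate pair of arrays that did not enter the choice of the comparison. At 12 h 350 (2.59%) of their probe sets were higher and 386 (2.86%) lower than at 6 h by 2-fold or more. Beyond that size in both arms were 73 higher probe sets, which are 13.9% of the Silwet list and 20.9% of the SA list, and 144 lower ones, which are 35.9% and 37.3%. Of the 524 probe sets higher in Silwet leaves 410 (78.2%) were higher in SA leaves, where 51.7% of all probe sets were, and their median difference was 0.42 in SA leaves. Of the 401 lower ones 350 (87.3%) were lower in SA leaves, where 45.6% of all were, with a median of -0.74. Over the 13513 probe sets the differences of the pairs correlated at Pearson's r = 0.409 and Spearman's rho = 0.301. Probe sets are not independent replicates, and all arrays share 1 normalisation. The lower genes were thus shared between the arms in a larger share of each list than the higher ones, and the difference between these shares was not tested.

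**Figure D5:**
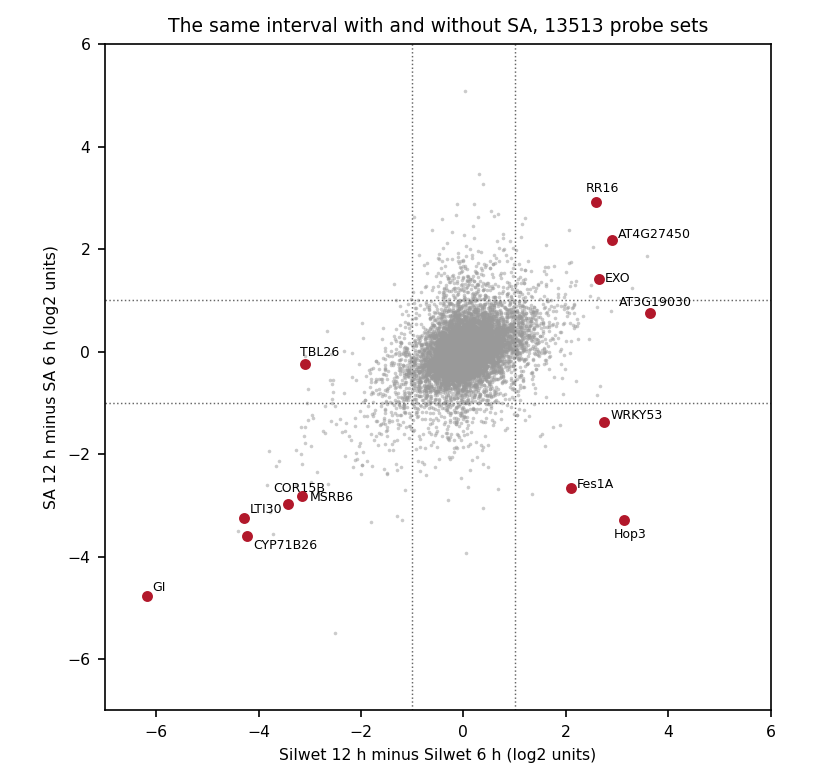
Difference 12 h minus 6 h (log2 units) in SA leaves (vertical axis) against that in Silwet leaves (horizontal axis) for 13513 probe sets, with dotted lines at 2-fold and named genes in red. GI, LTI30, CYP71B26 and COR15B lie far down in both arms, RR16 and AT4G27450 far up in both, and Hop3, Fes1A and WRKY53 are higher in Silwet leaves and lower in SA leaves.

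Largest by the smaller of both differences were, among higher genes, RR16, AT4G27450 (2.9 in Silwet leaves and 2.18 in SA leaves), AT2G37130 (2.06 and 2.37), AT5G58570 (2.53 and 2.04) and AT1G54740 (3.58 and 1.87). Among lower genes they were GI (-6.19 and -4.77), CYP71B26 (-4.23 and -3.61), AT1G73480 (-3.71 and -3.56), AT1G51090 (-4.40 and -3.50) and LTI30 (-4.29 and -3.24). At least 2-fold in opposite directions were 16 probe sets higher in Silwet leaves (3.05% of the 524) and 3 lower in Silwet leaves (0.748% of the 401). For the 524 higher probe sets the median level was 9.15 at 12 h and 7.81 at 6 h in Silwet leaves, 8.31 in untreated leaves, and 8.23, 8.33, 8.75 and 8.17 in SA leaves at 3, 6, 12 and 24 h. For the 401 lower ones it was 7.75 and 9.36 in Silwet leaves, 8.41 in untreated leaves, and 8.37, 8.56, 7.64 and 8.50 in SA leaves at 3, 6, 12 and 24 h. In SA leaves the 12 h array therefore stood apart from the other 3 in both sets, in the direction of the Silwet 12 h array.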

How the data were processed

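RNA of 7 leaf samples was read on Affymetrix ATH1 arrays, on which a group of short probes (a probe set) reads each transcript. The authors deposited 1 table of log2 values for 22810 probe sets. Per the submitters' processing notes these are RMA values from affy, with no version stated. This method removes background, gives all arrays 1 distribution and combines the probes of a set, so a shift of most transcripts together would not be seen, and dim probe sets show smaller differences than their transcripts had.

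Genes were named from the platform annotation: 13513 probe sets name 1 gene, 503 several and 8794 none (64 are controls, left out). RefSeq TAIR10.1 symbols matched 13436 of the 13513 through the gene number. A gene without a symbol is given by its locus alone. No genome build is named in the table, and no coordinate or sequence was used.

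The difference Silwet 12 h minus Silwet 6 h was taken per probe set with Python 3.11.15, pandas 2.3.3 and NumPy 2.4.6 and counted past 1 log2 unit. With 1 array a side there is no test and no p-value. Lists hold the brightest probe set of each gene. The counting was tested on simulated data.

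The comparison, the lists and the families were chosen with earlier results of these data known. The 26 lists held 801 loci, of which 136 entries were measured, and 7 lists (cell cycle, nitrogen and sulphur, and markers of phloem, epidermis, trichome, flower and root) had none. Of 18 families 5 were added after their values were seen. Named genes are the 15 furthest each way whose brighter Silwet array reached the median level of 7.04, the 5 each way furthest in both arms, up to 5 each way opposite in the arms, members of the lists, the 4 furthest of each family and, added later, the 20 furthest each way that have a symbol. Alternatives tried were a 4-fold limit, a filter on dim probe sets, median centring, quantile normalisation of the pair, 1 or all probe sets per gene, and all probe sets of the array.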

Additional observations from a re-analysis of the deposited data

Results flagged for a closer look

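A gene is given here where the 12 h minus 6 h difference passed 2-fold in Silwet leaves and passed 2-fold the other way in SA leaves. With 1 array at each time in each arm the difference between the arms was not tested. Among genes that reached the median level of the arrays 14 were higher in Silwet leaves and lower in SA leaves, and the 5 with the largest smaller difference were Hop3 (3.14 in Silwet leaves and -3.29 in SA leaves), Fes1A (2.1 and -2.67), AT4G13180 (1.60 and -1.85), IAGLU, an indole-3-acetate glucosyltransferase (1.54 and -1.60), and AT1G33110 (1.49 and -1.64). The opposite was found for 3 genes: AT3G15570 (-1.35 in Silwet leaves and 1.32 in SA leaves), AT3G03770 (-1.03 and 1.02) and MSRB5, a methionine sulfoxide reductase (-1.31 and 1.02). IAGLU read 9.18 at 12 h and 7.64 at 6 h in Silwet leaves, and 9.78 and 11.38 in SA leaves. MSRB5 read 8.59 and 9.91 in Silwet leaves, and 7.15 and 6.13 in SA leaves.

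Outside the genes, the array's control for 25S ribosomal RNA read 13.43 on the Silwet 12 h array, the highest of the 7, against 10.30 on the untreated array. Its part in the gene differences was not tested.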

How the results depend on the processing

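Each condition and time had 1 array, so nothing could be left out in turn. No paired analysis was possible because the groups hold 1 array each. A 4-fold limit left 48 higher and 69 lower probe sets in Silwet leaves, and all 22746 probe sets of the array other than controls gave 952 and 814 past 2-fold. With 0.5 log2 units in both arms 490 probe sets were higher and 471 lower in both. The counts past 2-fold stayed within 1.5 times under a filter that kept the 6018 brighter probe sets, median centring (a shift of 0), quantile normalisation of the pair and 1 probe set per gene, as far as each was run. Of 237 named genes 236 moved by less than 0.182, the median size of all differences, under quantile normalisation, and the largest move was 0.22. RMA had already given all arrays 1 distribution, so quantile normalisation and median centring could change little. Medians of lists depended more on dim members. With bright members only, 16 list and family medians moved by less than 0.182 and 21 by more. Those became 0.10 (clock), -1.43 (light), 0.30 (sugar), 0.54 (low energy), 0.53 (growth), 0.41 (auxin), -0.74 (flavonoid), -2.72 (cold), -0.21 (heat shock), 0.66 (jasmonate) and 0.77 (stomatal markers). Among families they became 0.51 (expansins), -0.69 (xyloglucan endotransglucosylases), 0.98 (Aux/IAA), -0.46 (UGT), 0.35 (CYP71B), 0.35 (GSTU), 0.16 (WRKY), -1.15 (late embryogenesis and cold-regulated), -0.55 (beta-glucosidases) and -2.12 (GH9). The clock, xyloglucan endotransglucosylase and CYP71B medians changed sign, all under 2-fold in both settings, with fewer members left. Several of these bright-only medians rested on very few genes. The Aux/IAA one was IAA18 alone, and the GH9 one was GH9C2 and GH9B7. The xyloglucan endotransglucosylase one was EXGT-A3 and XTH32, and the heat shock one Fes1A and AT5G48570, each pair with opposite signs. The flavonoid one was UGT78D1 and UGT78D2, and the stomatal one STOMAGEN and FMA.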

Other observations

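Some gene families gave values that belong to none of the groups above. Of 51 UGT glycosyltransferase genes 2 (3.92%) were higher and 5 (9.80%) lower by 2-fold or more in Silwet leaves at 12 h, against 3.9% and 2.97% of all genes. In SA leaves 0 were higher and 9 (17.6%) lower, against 2.61% and 2.88%. UGT73B1 read 8.76 at 12 h and 6.88 at 6 h in Silwet leaves (1.89) and 6.57 and 8.01 in SA leaves (-1.43), and the sterol glucosyltransferase UGT80B1 read 8.11 and 9.93 in Silwet leaves (-1.82). The beta-glucosidase family, added after its values were seen, had 16 of 22 members lower at 12 h, against 49.8% of all genes. The median was -0.12, and 16 of the 22 were under the median level on both Silwet arrays. In SA leaves 13 of the 22 were higher, against 51.7% of all genes. In Silwet leaves 1 (4.55%) was at least 2-fold higher, against 3.9% of all genes. At least 2-fold lower were 3 (13.6%), against 2.97%. Of these 3, BGLU44 (-2.04 in SA leaves) was bright, while BGLU47 read 5.21 and 6.78 in Silwet leaves. BGLU40 read 7.81 and 9.05 in Silwet leaves (-1.25) and 8.66 and 7.77 in SA leaves (0.89). The methionine sulfoxide reductases of type B were also added after their values were seen. Of these 4, MSRB6 and MSRB5 (50.0%) were at least 2-fold lower at 12 h, against 2.97% of all genes. MSRB9 (-0.41) and MSRB3 (0.26) were within 2-fold. Of 11 tau glutathione transferase genes 2 (18.2%) were at least 2-fold lower and 0 higher, against 2.97% and 3.9% of all genes. The lower ones were GSTU26 (-1.22) and GSTU23 (-1.20), both of them dim. Of 9 thioredoxin and glutaredoxin genes none differed 2-fold, where 3.9% of all genes were higher and 2.97% lower by that much. TRXF2, a chloroplast thioredoxin of light activation, was at -0.96. SUFE2, a sulphur donor of iron-sulphur cluster assembly, read 8.29 at 12 h and 6.55 at 6 h in Silwet leaves (1.75) and 9.79 and 11.26 in SA leaves (-1.47).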
